A study of Mus musculus with 2 samples.

Results

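Lens fiber-like cells were found in single-cell RNA libraries of eye cups from which the lens had been taken off. They were chosen by a rule on measured values: a barcode (the tag of 1 droplet, called a cell here) with at least 200 genes and at most 15% mitochondrial UMIs (unique molecular identifiers, tags that mark single captured transcripts), in which Cryaa, Cryab, Cryba1, Cryba2, Crybb1, Crybb3 and Crygs together gave at least 5% of UMIs. In all, 74 of 26158 kept cells met it. All 74 came from the control library, where they made up 0.524% of 14131 kept cells (95% Clopper-Pearson interval 0.411 to 0.657%). The mutant library held 0 of 12027, which allows a share of up to 0.0249%. The values of these 7 genes chose the cells and are given as a description only.

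Both libraries came from eye cups of mice at postnatal day 0 (P0), with 1 library per genotype, each a pool of 3 eye cups, and other ages in the study were not used here. The control carried the genotype Myrf fl/fl and the mutant Rx>cre Myrf fl/fl. Both groups therefore have Myrf, which encodes a transcription regulator, flanked on both copies by recognition sites for cre recombinase, and the mutant also carries a transgene with cre active in the early field of the optic cup, the source of retina and pigment epithelium. The lens comes from the surface ectoderm instead. Cornea, lens and optic nerve were removed before dissociation with papain. Each genotype was 1 pool, so the amount of lens left on the eye cups and the genotype cannot be told apart, and no test between genotypes was possible.

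The lens is built of a front layer of epithelial cells and a mass of fiber cells. At the lens equator epithelial cells leave the cell cycle, elongate into fibers, fill with crystallins and later break down their nucleus and other organelles. The alpha crystallins are small heat shock proteins, and the beta and gamma crystallins are packed structural proteins that give the fiber its high refractive index. Gamma crystallins A to F are made in fibers rather than in epithelium.

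The crystallin-rich cells were small libraries. Their UMIs ran from 509 to 16087 with a median of 881, against a median of 4244 in the other control cells. Their genes detected ran from 228 to 2800 with a median of 342, against 1930, and their mitochondrial share had a median of 3.52%, against 3.87%. Of the 74 cells, 62 detected under 500 genes, while 5 detected over 1000. One cell held 13.9% of the UMIs of all 74. Of the 59 barcodes found in both libraries, 0 belonged to the crystallin-rich cells. Another 2 control barcodes met the crystallin share but not the limits on genes or mitochondrial UMIs.

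The 7 genes of the rule took 5.24% to 33.4% of UMIs in these cells, with a median of 18.7%. The 3 cells just inside the threshold had 5.24%, 6.01% and 6.31%, and the 3 just outside had 4.89%, 4.05% and 3.66%. In the control, 152 cells reached 1%, 100 reached 2%, 79 reached 3%, 55 reached 10% and 30 reached 20%. The curve was flat around the threshold, with only 5 cells between 3% and 5%. In the mutant, 1 cell reached 1% and 0 reached 2%. That cell, at 1.71%, held 9 UMIs of Cryab and 0 of each of the other 15 crystallins.

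**Figure D1:**
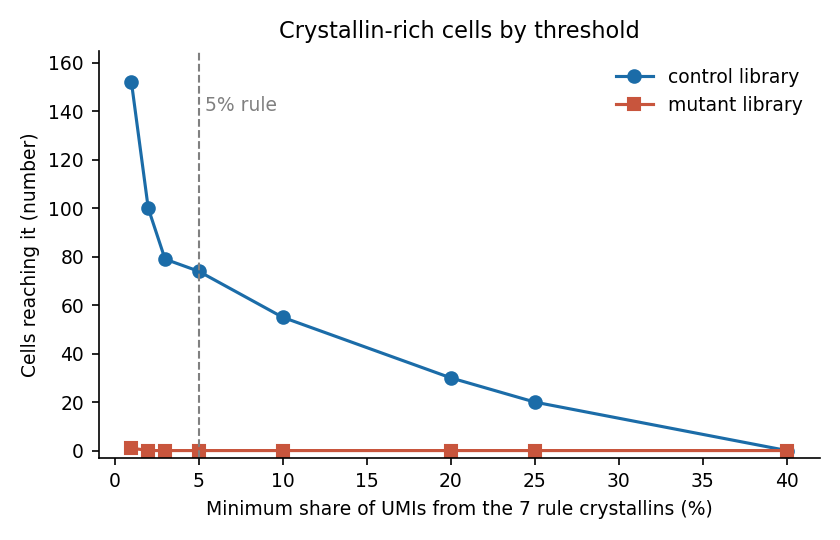
Number of kept cells (vertical axis) whose 7 rule crystallins give at least the share of UMIs on the horizontal axis (%), with circles for the control and squares for the mutant library; the dashed line is the 5% rule. The control falls from 152 cells at 1% to 74 at 5%, and the mutant has 1 cell at 1% and 0 from 2% on.

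Crystallins made up nearly as much RNA as all other genes together. Over the 74 cells, the 16 crystallins gave 55422 of 115802 UMIs, or 47.9%, and in single cells from 7.03% to 84.4% with a median of 44.8%. The largest fraction came from genes that the rule did not use. Gamma crystallins A to F gave 59.2% of the crystallin UMIs, the 6 beta crystallins 29.95%, the 2 alpha crystallins 9.36%, and Crygn with Crygs 1.46%. In 50 of 74 cells the UMIs of gamma A to F outnumbered those of the 7 rule genes. The 74 cells were 0.524% of the kept control cells and carried 47.9% of their crystallin UMIs and 58.0% of their gamma A to F UMIs.

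**Figure D2:**
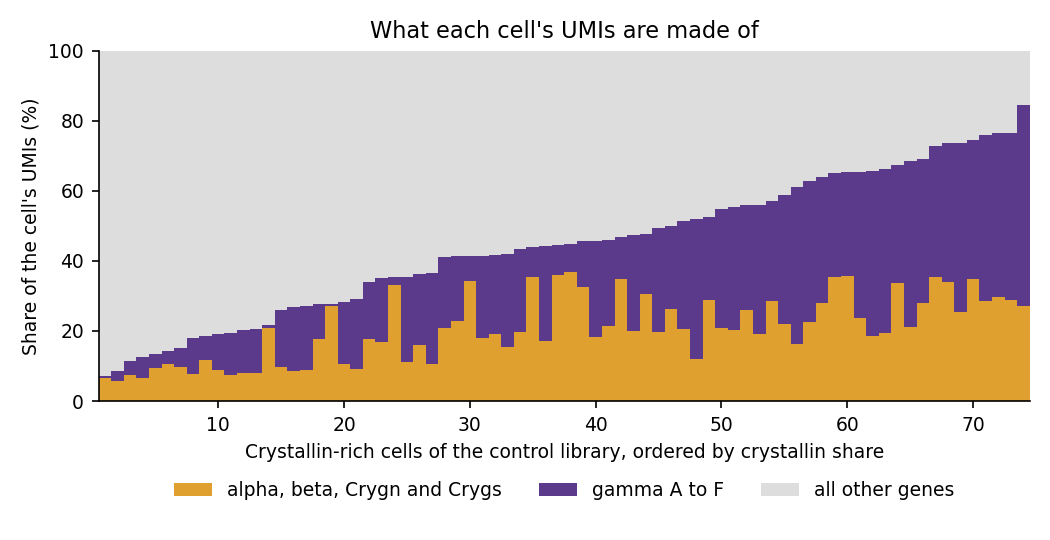
Make-up of each of the 74 crystallin-rich cells, ordered by crystallin share: share of the cell's UMIs (%, vertical axis) from gamma crystallins A to F, from the other crystallins and from all other genes. Crystallins rise from 7.03% to 84.4% of a cell, and the gamma portion varies between cells of like total.

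Crystallin levels are given in CPM (here UMIs per 1000000 UMIs of all genes), summed over the 74 cells. Libraries counted 3′ ends, so a level is not scaled by gene length. Cryge was the highest at 80733 CPM (95% Poisson interval 79104 to 82386, which covers counting error only), or 8.07% of all UMIs. Its share of a cell's UMIs was lowest at 0%, 6.47% at the median and 15.6% at the highest. It was found in 73 of 74 cells. Cryga followed at 61044 and Crygb at 53419. Crygd stood at 40319, Crygc at 26347 and Crygf at 21606. The cell with the most UMIs held 26.8% of the Cryge UMIs and 27.2% to 30.1% of those of each other gamma A to F gene. These levels, and the gamma portion of the crystallin UMIs, lean on that cell. The last 300 bases of the longest annotated Cryge and Crygf transcripts are 92.8% identical, so reads may have been split unevenly between those 2 genes, and their separate levels are uncertain. Between the other pairs among gamma A to F this identity was 59.2% to 74.3%.

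Among the beta crystallins, Cryba1 had 44300 CPM, Crybb3 41010 and Crybb1 31493, and each was found in all 74 cells. Cryba4, outside the rule, had 13886 and was also found in all 74. Cryba2 had 11787. Crybb2 was the lowest of the 16 at 872, found in 44 cells. Of the alpha crystallins, Cryaa had 38307 and was found in all 74 cells, with a share of 0.901% at the lowest, 4.00% at the median and 9.51% at the highest. Cryab, which many tissues make as a stress chaperone, had 6485. Crygs had 4654 and Crygn 2332. The 3 highest were gamma genes that the rule did not use, and the ranking is a description of the cells it chose.

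The genes of gamma A to E lie next to each other on the minus strand of chromosome 1 (GRCm38), from Cryge at chr1:65048554-65051149 to Cryga at chr1:65100389-65103373, with Crygf on the plus strand at chr1:65926520-65928307. Cryba4 and Crybb1 are neighbors on chromosome 5, at chr5:112246493-112252518 and chr5:112255815-112269585. Because the alpha, beta and gamma genes were high in the same cells, the 150 bases before the start of 6 of them are printed, from RefSeq promoters of GRCm38.p6, of which 15 of the 16 genes matched. Capitals mark 2 motifs chosen after the sequences were seen, searched on both strands. TGCTGAC is part of the recognition sequence of the Maf factors, which act in lens fibers. TGCTGAC was in 811 of 32851 promoter windows of this length (2.47%), and in 4 of 7 alpha or beta windows and 0 of 6 gamma A to F windows. CTTTTGTG was in 222 windows (0.676%), and in 5 of 6 gamma A to F windows and 0 of 7 alpha or beta windows. No crystallin window held more than 1 match, so matches did not overlap. A match describes the letters and does not show a bound site.
Cryba1: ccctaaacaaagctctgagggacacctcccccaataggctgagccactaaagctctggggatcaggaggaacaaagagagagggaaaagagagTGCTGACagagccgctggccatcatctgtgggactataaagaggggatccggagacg
Cryba4: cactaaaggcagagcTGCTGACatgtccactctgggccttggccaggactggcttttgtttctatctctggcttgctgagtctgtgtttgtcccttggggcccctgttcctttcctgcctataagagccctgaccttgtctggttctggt
Crybb1: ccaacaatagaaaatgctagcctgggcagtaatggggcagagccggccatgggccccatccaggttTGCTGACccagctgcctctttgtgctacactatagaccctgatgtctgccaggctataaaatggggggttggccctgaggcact
Cryga: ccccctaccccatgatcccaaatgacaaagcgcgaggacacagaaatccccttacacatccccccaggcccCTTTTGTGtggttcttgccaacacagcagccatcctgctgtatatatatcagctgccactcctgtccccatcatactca
Cryge: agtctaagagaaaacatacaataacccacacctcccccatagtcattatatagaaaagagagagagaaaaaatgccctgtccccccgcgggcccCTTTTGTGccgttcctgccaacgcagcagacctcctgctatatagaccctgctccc
Crygf: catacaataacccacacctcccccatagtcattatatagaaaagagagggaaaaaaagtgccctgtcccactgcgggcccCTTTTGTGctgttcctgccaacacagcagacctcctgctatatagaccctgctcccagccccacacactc
The Cryba1 window is chr11:77725294-77725443 on the minus strand, and TGCTGAC begins 57 bases before the start. The Cryba4 window is chr5:112252519-112252668 on the minus strand, with the motif 135 bases before the start. In Cryaa, not printed, it begins at 108. The Crybb1 window is chr5:112255670-112255819 on the plus strand, with the motif at 84. CTTTTGTG begins 79 bases before the start in the Cryga window, chr1:65103364-65103513 on the minus strand. It begins at 56 in the Cryge window, chr1:65051164-65051313 on the minus strand, and at 70 in the Crygf window, chr1:65926372-65926521 on the plus strand. The Cryge and Crygf windows are 78.7% identical in a global alignment, and Cryga and Cryge 54.8%.

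**Figure D3:**
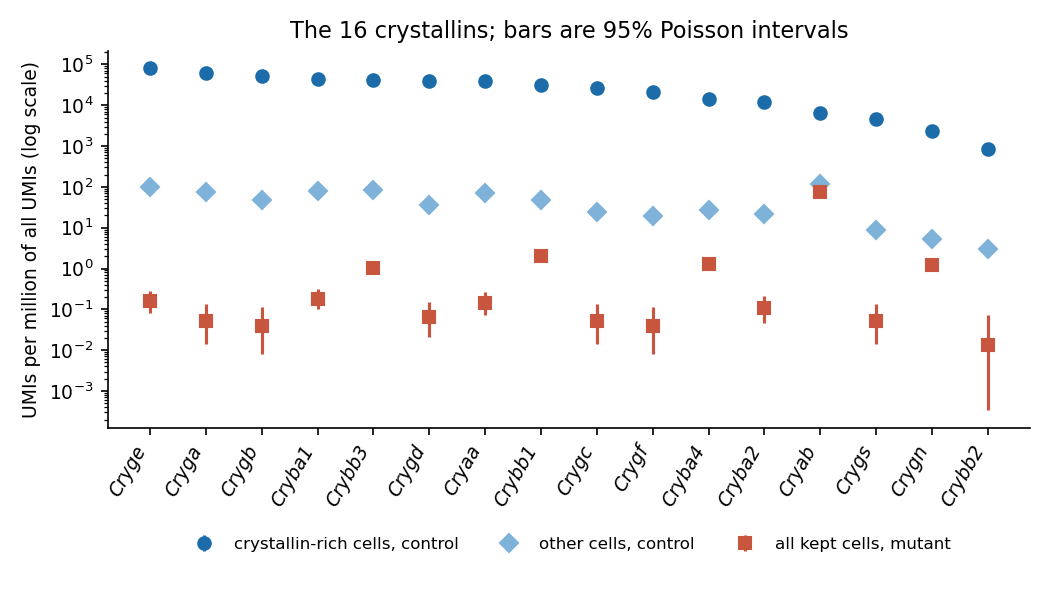
CPM of all UMIs (log scale) of the 16 crystallins in the crystallin-rich cells, the other control cells and all kept mutant cells; bars are 95% Poisson intervals. Between the other control cells and the mutant Cryab differs least, at 116 against 75.3 CPM.

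Identity as lens was checked on genes that the rule did not use. Other genes are given in CPM of the UMIs outside the 16 crystallins, and compared with the other 14057 control cells as log2 of the ratio after adding 1 CPM. A gene was measured with at least 10 UMIs in the crystallin-rich cells, or with 10 to be had there at the level of the other cells. A gene is called higher or lower at 2-fold, by size only, because cells of 1 library are not replicates. Of 1108 measured genes 84 were 2-fold higher (7.58%) and 90 were 2-fold lower (8.12%), and the median log2 ratio was -0.03. Of the 1108, 208 passed the minimum only through the crystallin-rich cells, among them 69 of the 84 called higher, so counts of genes called higher are a description and support nothing. Of the 19 genes of the lens fiber membrane and cytoskeleton list 12 were measured, 9 of them only through these cells, and list counts are therefore not read for genes of this kind. The levels and ratios of the fiber markers that follow are likewise a description. The cells are called lens fiber-like from the share of all 74 that held a UMI, both at equal depth and unthinned. The shares at equal depth are given after the levels for the 19 genes of the list whatever their level. The list was drawn up with earlier results of these data known. The epithelial marker Foxe3 had 0 UMIs in these cells and 0 in all other cells of both libraries, so it does not tell fiber from epithelium.

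Lim2, an abundant membrane protein of fibers, had 504 UMIs in 63 of 74 cells. Its level was 8347 CPM against 6.94 in the other control cells, a log2 ratio of 10.04. Mip, the water channel aquaporin 0, was found in 53 cells, at 2733 CPM against 5.46, a log2 ratio of 8.72. Both proteins sit in the fiber cell membrane. Bfsp1 (filensin) and Bfsp2 (phakinin), which form the beaded filaments of fibers, had 3958 and 2733 CPM against 5.04 and 7.15, with log2 ratios of 9.36 and 8.39. At least 1 UMI of Lim2, Mip, Bfsp1 or Bfsp2 was seen in 69 of 74 cells (93.2%), and in 1323 of 14057 other control cells (9.41%).

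The gap junction gene Gja3, whose protein couples fibers to each other, had a log2 ratio of 7.99 from 33 UMIs in 17 cells. Grifin, a lens galectin, had 40 UMIs in 24 cells and a log2 ratio of 8.40. Tdrd7, a granule protein of fibers that acts on RNA, had a log2 ratio of 5.44, and Caprin2, an RNA-binding protein, 3.97 from 10 UMIs. Fabp5, a fatty acid binding protein that other cells also make, had 3511 CPM against 408, 8.60-fold higher. It was found in 67.6% of these cells and in 66.2% of the other control cells, so this ratio is not read as higher expression. Fabp5 also had enough UMIs in the other cells to pass the minimum at their level. The other 3 measured genes of the list stayed within 2-fold: Cdh2 at 0.71, Ank2 at 0.67 and Vim at -0.20. Too few UMIs were found to measure Dnase2b, the nuclease that clears fiber nuclei, with 7 UMIs in 6 cells, Lctl with 8 in 6 cells and Birc7 with 7 in 7 cells. Lgsn and Tmod1 had 0 UMIs.

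**Figure D4:**
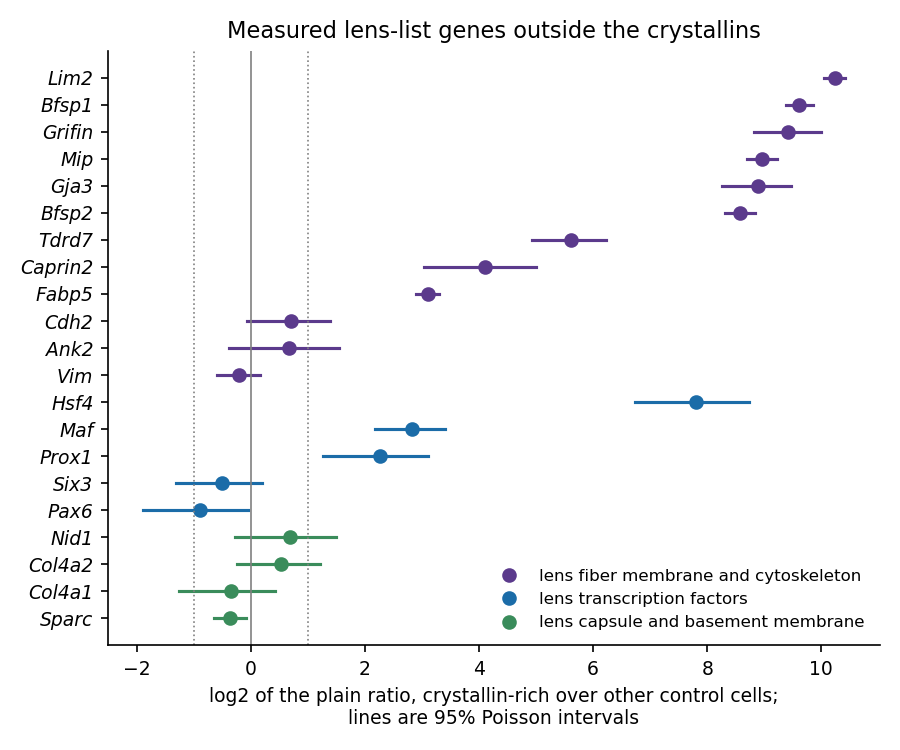
log2 of the plain ratio of CPM outside the crystallins, crystallin-rich over other control cells (horizontal axis), for the measured genes of 3 lens lists; lines are 95% Poisson intervals and dotted lines mark 2-fold. Lim2, Bfsp1, Grifin, Mip, Gja3 and Bfsp2 lie farthest to the right, and 4 of 4 measured capsule genes lie within 2-fold.

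Thinning each cell to 250 UMIs outside the crystallins, which left out no cell, set depth equal. Lim2 was then seen in 73.0% of crystallin-rich cells (54 of 74) and in 0.239% of 5449 retinal progenitors. It was seen in 0 of 124 surface epithelium cells and 0 of 224 macrophages, cells that should lack it. Unthinned, the share was 85.1% in the crystallin-rich cells, 3.36% in progenitors, 2.42% in surface epithelium and 2.68% in macrophages, at median depths of 881, 4969, 9340 and 4510 UMIs. Bfsp1 was seen in 55.4% after thinning, Mip in 45.9%, Bfsp2 in 39.2% and Grifin in 20.3%, and each in at most 0.807% of any of those 3 comparison groups. Among the other genes of the list, Tdrd7 was seen in 9.46% of the crystallin-rich cells and 0.107% of the other control cells, and Gja3 in 8.11% and 0.0498%. Caprin2, Lctl and Birc7 were each in 5.41%, against 0.306% for Caprin2 and 0 of 14057 cells for Lctl and Birc7. Dnase2b was in 4.05% and in 1 of the other 14057. Fabp5 was in 55.4% against 9.92%, but unthinned in 67.6% against 66.2%, so it is not counted toward the name of the cells. The equal-depth share was also higher for Col1a1, which is not read as expression below, at 71.6% against 30.9% of the other control cells. Hbb-bs was in 17.6% against 5.51%. Unthinned, Col1a1 was in 93.2% against 90.9% and Hbb-bs in 41.9% against 38.0%. A higher share at equal depth is therefore not read alone. Lim2, Mip, Bfsp1 and Bfsp2 also stood apart unthinned, in 59.5% to 85.1% against 2.44% to 3.19%. Caprin2 was closer, at 8.11% against 4.98%.

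The rest of the list did not set the cells apart at equal depth. Vim, an intermediate filament gene of many cell types, was in 24.3% of the crystallin-rich cells, 20.5% of macrophages and 15.2% of the other control cells. Cdh2 was in 4.05% against 4.85%, Ank2 in 1.35% against 2.52% and Hspb1 in 1.35% against 1.22%. Nrcam and Tmod1 were in 0 of 74, against 1.91% and 0.292%, and Lgsn was in 0 cells of either group.

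Of 20 lens transcription factors 5 were measured, and 3 of these, Hsf4, Maf and Prox1, passed the minimum only through the crystallin-rich cells. Hsf4, a heat shock factor needed in fibers, had a log2 ratio of 6.66 from 11 UMIs in 8 cells. Maf, which drives crystallin genes, had 398 CPM against 56.1, a log2 ratio of 2.80. Prox1, a regulator of fiber elongation, had 182 CPM against 37.9, a log2 ratio of 2.23. At the equal depth of 250 UMIs, Maf was in 10.8% of the crystallin-rich cells but in 16.5% of macrophages, and Prox1 in 4.05% (exact interval 0.844 to 11.4%) against 1.49% of progenitors. Hsf4 was in 5.41% against 0.0285% of the other control cells, and Pax6 in 0 of 74 against 8.39%. Six3 was at -0.51 and Pax6 at -0.88 on the log2 scale, both within 2-fold, but Pax6 was at -2.03 without the 5 cells that detected over 1000 genes, from 3 UMIs. Pitx3 had 0 UMIs. Of 30 inherited cataract genes other than crystallins 11 were measured. The 8 of these past 2-fold are Mip, Lim2, Bfsp1, Bfsp2, Gja3, Tdrd7, Hsf4 and Maf, and all 8 passed the minimum only through the crystallin-rich cells.

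The other lens groups did not stand apart at this depth. Of 10 lens epithelium genes only Pax6, given above, was measured, and the whole list gave 778 CPM against 737 in the other control cells. Foxe3, Cdh1 and Tfap2a had 0 UMIs, which allows up to 49.7 CPM each. Of 17 lens capsule and basement membrane genes 4 were measured and 0 passed 2-fold, with a median of 0.09, from Nid1 at 0.67 to Sparc at -0.36. Myrf, the gene deleted in the mutant, had 0 UMIs in the 74 cells. Its level in the other control cells, 11.2 CPM, lies under the limit of 49.7 CPM and was not detectable here. In the mutant library Myrf stood at 1.70 CPM.

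Pathways of fiber differentiation were read from gene lists. Of 17 organelle loss and autophagy genes found in the files 7 were measured, and the 3 that were higher passed the minimum only through the crystallin-rich cells. Pla2g16, a phospholipase that opens organelle membranes in fibers, had 49 UMIs in 25 cells and 812 CPM against 64.4, a log2 ratio of 3.63. Unthinned, it was in 33.8% of these cells, 24.9% of the other control cells and 44.6% of retinal progenitors. Its ratio is therefore not read as higher expression. Hsf4 and Tdrd7 were the other two, and Map1lc3b, an autophagosome protein, was lower at -1.22, but at -0.70 without the 5 cells over 1000 genes. Of 13 Notch pathway genes 4 were measured. Jag1, the ligand that fibers present to epithelial cells, was at 2.89 from 10 UMIs in 9 cells, and Hes1, a Notch target, was at -1.24. Jag1 passed the minimum only through the crystallin-rich cells. Its UMIs per cell were close to those of the other control cells, so it is not read as higher expression. Of 14 FGF receptor and response genes 0 were measured, with 30 UMIs over the list.

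Of 15 G2 and mitosis genes 6 were measured, 0 were higher and 4 lower, where 8.12% of all measured genes were lower: Ube2c at -2.28, Birc5 at -1.33, Cdk1 at -1.10 and Top2a at -1.03. Without the 5 cells that detected over 1000 genes only Ube2c stayed past 2-fold, at -1.57. Of 14 S phase genes 2 were measured, both only through the crystallin-rich cells. Mcm6, part of the replicative helicase, was higher at 1.41, but at 0.14 without those 5 cells. Of 5 cell cycle exit genes 1 was measured, within 2-fold. Among 19 glutathione and redox genes 7 were measured, and among 15 chaperones 8, and in both lists 0 passed 2-fold. Of 20 glycolysis genes 10 were measured, and Ldha and Ldhb, the subunits of lactate dehydrogenase, were lower at -1.16 and -1.06, beside 8.12% of all measured genes. Ldha was at -0.83 without those 5 cells. Of 15 dissociation response genes 5 were measured and 3 were lower, beside the same 8.12% of all measured genes, Ier2 at -2.19, Btg2 at -1.93 and Fos at -1.81, with all 4 Fos UMIs in 1 cell.

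Among genes outside every list, and with at least 20 UMIs in at least 10% of the cells, Pgam2, the muscle form of phosphoglycerate mutase, had the largest ratio, with 34 UMIs in 20 cells, 563 CPM against 1.49 and a log2 ratio of 7.82. Pla2g7, a secreted phospholipase, was next at 4.54, then Sfrp1, a secreted Wnt antagonist, at 3.09 and Cd24a, a surface glycoprotein, at 2.95. Sfrp1 had 35 UMIs in the 74 cells and 5284 in the other 14057 control cells, and Cd24a had 57 and 9534. Their UMIs per cell were thus close in both groups. Cd24a was found in 35 cells, no one of which held over 5.26% of its UMIs. Nupr1 was at 2.35, Ndufa1 at 2.34, Gsn at 2.24, Pdlim7 and Nap1l4 at 2.12 and 2.11, Eif5b at 1.59, Pabpc1 at 1.51 and Tbcb at 1.49. From Nupr1 to Tbcb, each gene had fewer UMIs per cell here than in the other control cells, so these ratios are not read as higher expression. Capn3, a calpain protease, at 7.29 with 17 UMIs in 13 cells and Gje1, a lens connexin, at 6.58 with 12 UMIs in 9 cells were chosen after their values were seen.

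For a few of these genes 1 cell held most of the UMIs. Ptn, a secreted growth factor, had a log2 ratio of 1.54, but 85.7% of its UMIs came from 1 cell, and without the 5 cells over 1000 genes it was at -1.03. Gsn, an actin-severing protein, was still past 2-fold without those 5 cells, at 1.68. Over all 74 cells, 55.9% of its UMIs came from 1 cell. That was a cell of 10098 UMIs and 2800 genes with 228 UMIs of Col1a1, where the next highest of the 74 had 8. It also held 84 UMIs of Ptn and 41 of Igfbp3 beside 368 of Cryge, 9 of Lim2 and 7 of Bfsp1. In all, 14 of the 84 genes called higher drew over 50% of their UMIs from 1 cell, and 67 stayed at least 2-fold higher without the 5 cells over 1000 genes.

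Several of the lowest genes are markers of other cells of the eye cup. Pf4, a chemokine of platelets and macrophages, had 0 UMIs, at least 4.86-fold lower than the 242 CPM in the other control cells (by the limit of 3 counts over the 74 cells). Fabp7, a glial and progenitor gene, was at -4.10, and the photoreceptor genes Gngt2 and Otx2 were at -3.09 and -2.49. Ifitm3 was at -3.63 from 1 UMI. The hemoglobin genes Hbb-bt, Hba-a2, Hbb-bs and Hba-a1 were at -3.81, -3.17, -3.05 and -2.81, and Ube2c at -2.28. Against retinal progenitors the hemoglobin genes did not stand apart, with Hbb-bs at -0.20 and Hba-a1 at 0.05. Fabp7, Gngt2 and Otx2 were at -2.03, -1.14 and -1.27 there. Pf4 had 42.7 CPM in progenitors, under the 49.7 CPM that 0 UMIs allow here, so no difference from progenitors could be seen. The 10 macrophage markers gave 3 UMIs in all, or 49.7 CPM, against 569 in the other control cells and 91.8 in progenitors. That is too few UMIs to tell these cells from progenitors. The 10 photoreceptor markers gave 199 CPM, against 1112 in the other control cells and 374 in progenitors. Of these 10 markers 2 of 2 measured were lower, beside 8.12% of all measured genes. Against retinal progenitors 0 of the 10 were measured.

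Markers of mesenchyme were not low. All 74 cells held a UMI of the 10 mesenchyme genes, which summed to 16496 CPM against 16037 in the other control cells, and 0 of 5 measured passed 2-fold. Leaving out the 5 cells over 1000 genes, Col1a1 gave 2.90 UMIs per cell in the crystallin-rich cells, 6.76 in macrophages and 11.4 in red blood cells. Col1a1 was seen in 92.8% of those 69 cells, 89.3% of macrophages and 87.1% of red blood cells, which should lack it, at median depths of 4510 and 5702 UMIs, so it is not read as expression here. Of the retinal progenitor genes 7 were measured and only Sfrp2 was higher, at 1.90, with 24 of its 29 UMIs in the collagen-rich cell, and at -0.64 without the 5 cells over 1000 genes. Sfrp2 passed the minimum only through the crystallin-rich cells. Meg3, of the amacrine and horizontal list, was at 1.07 and at 0.44 without the 5 cells over 1000 genes. Ttn, of the skeletal muscle list, was at 2.72 from 10 UMIs in 8 cells. It passed the minimum only through the crystallin-rich cells. Its UMIs per cell were close to those of the other control cells, so it is not read as higher expression.

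Some ribosomal and mitochondrial genes had higher CPM in these cells when crystallins were left out of the total. Gm42418, which overlaps ribosomal RNA sequence, had 19510 CPM against 4958, a log2 ratio of 1.98, and AY036118, of the same kind and chosen after its value was seen, was at 1.38. Lars2, a mitochondrial tRNA synthetase whose 3′ part can draw ribosomal reads, was at 1.78. Of 12 measured mitochondrial genome genes mt-Nd5 and mt-Cytb were higher, at 1.38 and 1.00, beside 7.58% of all measured genes. The list's median was 0.82. In the 2604 other control cells of 509 to 2000 UMIs, Gm42418 had 12629 CPM and Lars2 1322. In the crystallin-rich cells without the 5 over 1000 genes they had 27461 and 2779. In UMIs per cell the same groups were alike, with 14.61 of Gm42418 in the crystallin-rich cells against 14.95, and 1.478 of Lars2 against 1.565, so the higher CPM of these genes is not read as expression here. For the mitochondrial genes the part of low depth was not tested.

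The lens fiber-like cells were then compared with 2 groups of the same library that were picked by marker UMIs. Against 5449 retinal progenitors, 94 of 1148 measured genes were 2-fold higher (8.19%) and 129 lower (11.2%), and Lim2 was at 10.05 and Bfsp1 at 9.54. Against 124 surface epithelium cells, which share the ectodermal origin of the lens, 278 of 1146 were higher (24.3%) and 195 lower (17%). Lim2 was at 11.23 and Bfsp1 at 9.84 there, while Hspb1, a heat shock protein of the fiber list, was lower at -6.39. Of the genes higher in these comparisons, 75 of 94 and 230 of 278 passed the minimum only through the crystallin-rich cells. Prox1, whose ratio is not read as higher expression, was 2.23 above all other control cells, 1.79 above progenitors and 5.41 above surface epithelium. Jag1 was 3.91 above progenitors and 0.57 above surface epithelium, within 2-fold. Gsn, 2.95 above progenitors, was at -0.36 against surface epithelium, and Pax6 was lower than in both, at -1.15 and -1.52.

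The balance between gamma and other crystallins varied widely. Gamma A to F gave 2.78% to 77.1% of a cell's crystallin UMIs, with a median of 55.2%. Ranges of this share were chosen after the data were seen: under 20% in 8 cells, 20 to under 60% in 35 and 60% and over in 31. Bfsp1 had 0 UMIs in the 8 low-gamma cells, in 7756 UMIs outside the crystallins, which allows up to 387 CPM, then 2213 and 5760 CPM in the other ranges. It was seen in 0 of 8, 22 of 35 and 29 of 31 cells. Bfsp2 went from 516 to 1826 and 3705.

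With all 74 cells the whole fiber list followed this order too, at 12764, 21413 and 29580 CPM, as did Gja3 at 258, 332 and 724 and Grifin at 387, 609 and 753. Without the deepest cell, the high range fell below the middle one for the list, at 20659, and for Grifin, at 530. Without the 5 cells over 1000 genes the list gave 23121, 23193 and 50706, so its step from low to middle rested on 1 of the 8 low-gamma cells. Mip did not follow the order. It had 2708, 2601 and 2807 CPM in the low, middle and high-gamma cells, and was seen in 7 of the 8 low-gamma cells. Without the 5 cells over 1000 genes Mip had 6085, 2876 and 5094, and Bfsp1 0, 2325 and 10422. Lim2 was in 7 of those 8 as well, at 5415 CPM, with 7746 and 9320 in the others. Without the deepest cell, Lim2 in the high range was 6085 CPM, below the middle range, while Bfsp1 was 4057 and Bfsp2 2278. Without the 5 cells over 1000 genes Lim2 had 11561, 8445 and 16687. Over the 74 cells the gamma share correlated with the Bfsp1 share at r = 0.45 (rho = 0.63), with Lim2 at 0.11 (rho = 0.15) and with Mip at 0.03 (rho = 0.10), as a description over cells that share a library.

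**Figure D5:**
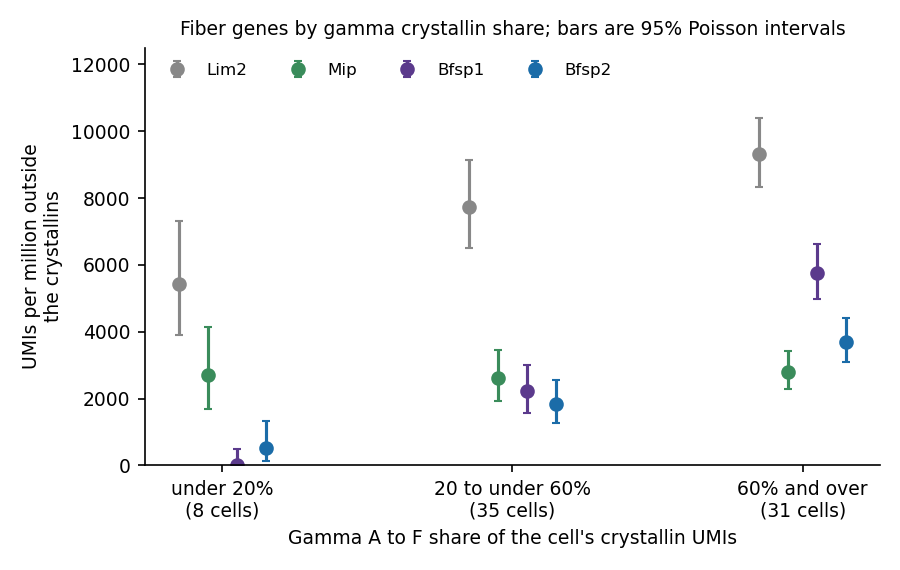
CPM outside the crystallins (vertical axis) of 4 fiber genes in 3 ranges of the gamma A to F share of a cell's crystallin UMIs; bars are 95% Poisson intervals. Bfsp1 and Bfsp2 are higher in each higher range, and Mip lies between 2601 and 2807 with all 74 cells.

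Crystallin UMIs were not confined to these cells in the control library. The other 14057 control cells carried 60391 crystallin UMIs, 768 CPM, and 87.6% of them held at least 1. For Cryge the mean was 0.616 UMIs per cell in progenitors, 0.524 in surface epithelium, 0.532 in red blood cells and 0.567 in macrophages, alike across types whose median depth ran from 4510 to 9340. For Cryaa these means were 0.402, 0.452, 0.439 and 0.321. Levels this alike in every type, hemoglobin-filled red blood cells among them, are not read as expression. Cryab, which is part of the 768 CPM, was not alike, at 3.84 UMIs per cell in surface epithelium and 0.245 in red blood cells. Between the threshold and 1%, another 78 control cells had a median of 1466 UMIs, and 45 of them held a UMI of Lim2, Mip, Bfsp1 or Bfsp2.

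Crybb1 and Cryba4 departed from this in macrophages. Control macrophages had 1.73 UMIs of Crybb1 per cell, against 0.257 in progenitors, 0.274 in surface epithelium and 0.302 in red blood cells. For Cryba4 the values were 0.795 against 0.146, 0.145 and 0.165. Among the 15 crystallins other than Cryab, Crybb1 made up 29.6% of UMIs in macrophages and 6.67% in the lens fiber-like cells, and Cryba4 13.6% and 2.94%. In the mutant, 82 macrophages held 117 of the library's 155 Crybb1 UMIs and 93 of its 96 Cryba4 UMIs, at 133 and 105.5 CPM (exact Poisson intervals 110 to 159 and 85.2 to 129). The same mutant cells had 0 UMIs of Cryaa, Cryba1, Crybb3 and gamma A to F.

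The mutant library was nearly free of lens crystallins. Gamma A to F gave 31 UMIs, 0.408 CPM, in 12027 cells, against 303 CPM in the other control cells. Cryaa had 11 UMIs against 5581 and Cryge 12 against 7995. Cryab stood apart, at 75.3 CPM against 116 in the other control cells. Its level in surface epithelium was 543 CPM in the mutant and 394 in the control. Fiber genes also differed in how far they were lower in the mutant. Lim2 was 21.9-fold and Gja3 14.7-fold higher in the other control cells than in the mutant, while Bfsp1, Bfsp2 and Grifin were 2.36-fold, 2.26-fold and 1.56-fold higher. With 1 library per genotype these are values of 2 libraries, not of the genotypes.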

How the data were processed

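The crystallin-rich cells, the gene lists and the comparisons were chosen with earlier results of these data known. The authors made 10x Genomics 3′ libraries and deposited matrices of UMI counts that were not normalized, holding the droplets kept as cells. The submitters' processing notes name Cell Ranger 7.1.0, Seurat 4.1.1 and the mm10 build. The matrix headers carry software version 3.1.0, and the annotation is not given in the sources used here. The stated limits of 200 genes and 15% mitochondrial UMIs were applied. Their doublet limit, 2000 UMIs, served only as an alternative. No doublet caller was run, and as an alternative 14 of the 74 were left out for holding at least 3 UMIs of another type's markers at 0.25 or more of that type's median share. Control and mutant libraries held total counts of 79017429 and 76272867, with medians of 4201 and 4952 per barcode.

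Counts were summed over cells. Crystallins were scaled to CPM of all UMIs and other genes to CPM of UMIs outside the 16 crystallins, since cells chosen for crystallins hold fewer UMIs of everything else. Ratios used a pseudocount of 1 CPM, a minimum of 10 UMIs and a 2-fold call with no test, because each genotype had 1 library. Intervals are exact at 95% and, like the limit of 3 counts for a count of 0, cover counting error only. Comparison groups held at least 5 UMIs of their markers (retinal progenitors among others Sfrp2, Fgf15 and Hes5; surface epithelium Krt5, Krt14, Krt15, Trp63 and Perp with under 5 of the progenitor UMIs; macrophages C1qa, C1qb, C1qc, Csf1r and Tyrobp), or 20% hemoglobin UMIs for red blood cells. Named genes were the 16 crystallins, measured lens-list genes past 2-fold, the 15 largest ratios outside the lists among genes with 20 UMIs in 10% of the cells, the 10 lowest among genes at 200 CPM in other control cells, and Myrf. A gene of the lens lists is not reported here and was left out of list counts and figures, but stays among all measured genes. Gene positions came from GENCODE M21 (GRCm38), matched by identifier. The scripts were tested on simulated data and used Python 3.11.15, numpy 2.4.6 and scipy 1.17.1.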

Additional observations from a re-analysis of the deposited data

How the results depend on the processing

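The share of lens fiber-like cells in the control followed the definition. It was 0.708% at a 2% crystallin threshold, 0.389% at 10%, 0.212% at 20% and 0.679% with all 16 crystallins in the rule. With a minimum of 500 genes it was 0.08865%, and with an upper limit of 2000 UMIs 2.34% (63 cells). In the mutant the share was 0% under each of these alternatives. The 84 genes higher and 90 lower became 37 and 516 in CPM of all UMIs, where crystallins take UMIs from every other gene. They became 48 and 50 of 483 measured with the 2000 UMI limit, and 12 and 9 of 142 with each cell thinned to 1000 UMIs, which left 8 cells. The mean over cells gave 156 lower, and a 20% threshold gave 41 lower. Of the fiber list, 5 of 5 measured genes were higher after that thinning, and 1 gene was lower in CPM of all UMIs and with a minimum of 5 UMIs. The list's median ran from 5.03 to 9.47 over the 16 alternatives. These counts and medians are a description and support nothing. In the main setting 9 of the 12 measured genes of the list passed the minimum only through the crystallin-rich cells.

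Ptn changed sign, to -0.0091 with the mean over cells, -1.12 and -0.52 at thresholds of 10% and 20%, -0.95 without mixed cells, -0.23 with the 2000 UMI limit and -1.03 without cells over 1000 genes. With 8 thinned cells, Nupr1 was at -6.23 and Gje1 at -1.51, both from 0 UMIs where 1 UMI is worth 125 CPM and the other cells had 74.3 and 1.84 CPM, so no fall could be seen at that depth. The pigment epithelium list's median was 0.15 with the mean over cells. Leaving out the deepest cell or those over 1000 genes was chosen after seeing the data. No paired analysis was possible because each genotype had 1 library, and no library could be left out. The small number of UMIs outside crystallins, 60380 in all, limits what can be said of genes with few UMIs, and most transcription factors were not measured.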
